A study of Mus musculus with 6 samples.

Results

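The liver turns cholesterol into bile acids through a chain of sterol hydroxylases, ring-modifying enzymes, side-chain enzymes and conjugating enzymes. The 10 genes described here encode enzymes of that chain and were chosen by name: Cyp7a1, Cyp8b1, Cyp27a1, Cyp7b1, Hsd3b7, Akr1d1, Amacr, Acox2, Slc27a5 and Baat. All 10 had a probe set of their own, 1 for each gene, among the 19550 genes that could be named on the array, and all 10 were among the 14662 genes bright enough to be tested.

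Liver RNA of male mice on the C57BL/6NCrSlc background was hybridised to 6 mouse Gene 1.0 ST arrays, 2 in each of 3 groups. The first group were SMP30/GNL knockouts without ascorbic acid (AA, vitamin C), called AA-deficient knockouts here. The next were SMP30/GNL knockouts given AA, stabilised with EDTA, in their drinking water (AA-supplemented knockouts), and the last were wild type drinking water without the vitamin. Every mouse ate the same AA-deficient chow. The protein missing in the knockouts is regucalcin (senescence marker protein 30, encoded by Rgn), a gluconolactonase of AA synthesis. Wild type keep this enzyme of AA synthesis, and AA levels were not among the values used here. The sources used here do not give the mice's age, the part of Rgn removed, the time of day of collection or any pooling of animals. They also do not say whether the 2 groups not given AA in their water received EDTA. If they did not, AA and EDTA cannot be told apart between the 2 knockout groups. Nor do the labels state that each array stands for its own animal, so a p-value covers the variation among these samples alone, and that variation may be technical.

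The classic route of bile acid synthesis starts when Cyp7a1 hydroxylates cholesterol, the rate-limiting step. Hsd3b7 and Akr1d1 then rework the steroid ring, and Cyp8b1 adds the hydroxyl group that leads to cholic acid in place of the chenodeoxycholic acid branch, which mice carry on to muricholic acids. The alternative route starts from oxysterols made by Cyp27a1, which are hydroxylated by Cyp7b1, and Cyp27a1 also opens side-chain oxidation in both routes. Bile acids limit their own synthesis through the receptor FXR and, from the intestine, through FGF15. In guinea pigs, which cannot make AA, lack of the vitamin is known for slow conversion of cholesterol to bile acids, and the study's groups allow the transcripts of this pathway to be compared with and without AA.

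The promoters of Cyp8b1 and Hsd3b7 are shown because these were the members with an available promoter that differed most, relative to their error, between AA-deficient knockouts and wild type. Each line is the 250 bases upstream of the gene's start, 5′ to 3′ on the gene's strand (RefSeq, GRCm38.p6). The Cyp8b1 window is chr9:121916306-121916555 on the minus strand, and the Hsd3b7 window is chr7:127800359-127800608 on the plus strand.
Cyp8b1: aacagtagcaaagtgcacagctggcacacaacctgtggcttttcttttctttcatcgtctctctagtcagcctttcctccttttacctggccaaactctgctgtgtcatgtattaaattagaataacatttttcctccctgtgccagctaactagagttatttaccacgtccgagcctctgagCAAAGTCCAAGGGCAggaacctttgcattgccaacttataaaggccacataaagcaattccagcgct
Hsd3b7: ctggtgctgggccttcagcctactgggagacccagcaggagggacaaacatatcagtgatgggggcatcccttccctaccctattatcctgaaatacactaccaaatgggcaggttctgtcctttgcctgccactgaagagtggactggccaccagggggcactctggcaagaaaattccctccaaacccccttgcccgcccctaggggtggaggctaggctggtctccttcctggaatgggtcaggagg

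The capitals in Cyp8b1 mark 2 overlapping matches. The letters CAAAGTCCA, a core recognised by HNF4A, lie at bases -67 to -59 from the start, and CAAGGNCA, recognised by NR5A2 (LRH-1), lies at bases -60 to -53. In the rat gene, overlapping sites for these 2 receptors are known from promoter studies. Over 32841 RefSeq promoter windows of 250 bases, 0.384% held the HNF4A letters and 5.53% the NR5A2 letters on either strand. The search also covered AGGTCA, a core site of nuclear receptors (14% of windows), ATCAAT, a core for Onecut factors (6.72%), TTANGTAA, the D-box of clock output factors (2.06%), and CACGTG, the E-box (6.02%). Windows existed for 5 members (Cyp8b1, Cyp27a1, Hsd3b7, Akr1d1 and Acox2, the last with 2 starts), and the only other match was AGGTCA on the minus strand of Akr1d1, at bases -232 to -227 and -210 to -205. A match is a string of letters and not a measured binding site, and the motifs were picked with results of these arrays known.

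Values are the deposited log values of each array, read here as log10, and differences are in the same log units. Folds hold on that reading. Rgn, the gene removed, had 0.23 and 0.30 in AA-deficient knockouts and 0.34 and 0.14 in AA-supplemented knockouts, against 2.07 and 1.996 in wild type, which fits the labels. Its difference from wild type was -1.77 in AA-deficient knockouts and -1.79 in AA-supplemented knockouts (adjusted p of 8.98e-05 and 8.11e-05 in limma). The arrays' medians lay between 0.350 and 0.392, and arrays of one group correlated at 0.965 to 0.975, against 0.945 to 0.974 between groups. The mean over 10 hepatocyte markers (Alb, Ttr, Apoa1 and others) ran from 2.05 to 2.21 over the arrays, well above the arrays' upper quartiles of 0.727 to 0.755. With no detection call used, a low value cannot be told from background.

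Cyp8b1 was the member that passed the test, and it passed between AA-deficient knockouts and wild type. Its values were 1.78 and 1.68 in AA-deficient knockouts, 1.52 and 1.54 in AA-supplemented knockouts, and 1.41 and 1.32 in wild type. The 3 groups did not overlap: each AA-deficient array was above each AA-supplemented array, and each of those was above each wild-type array. Taken 2 groups at a time, 37.3% to 54.5% of all genes tested did not overlap either. The mean was 1.73 ± 0.077 over the AA-deficient arrays, 1.53 ± 0.018 over the AA-supplemented arrays and 1.36 ± 0.060 over the wild-type arrays (SD, n = 2 each). Cyp8b1 rose in AA-deficient knockouts against wild type by 0.37 (SE 0.052), a 2.33-fold difference with a 95% interval of 1.76-fold to 3.07-fold, and an adjusted p of 0.0159 in limma with Benjamini-Hochberg adjustment over all genes tested. The moderated F-test over the 3 groups, on the same arrays, gave an adjusted p of 0.0389, a call that was lost with no filter on dim genes, with the replicate block and without either AA-deficient or either wild-type array. AA-deficient knockouts and wild type differ in Rgn and in AA together, so the 2 cannot be told apart in any call between these groups. In bulk tissue, a change in the share of cells of a type and a change in RNA per cell cannot be told apart.

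The other 2 comparisons place the AA-supplemented knockouts between these ends, and neither step passed the test. AA-deficient minus AA-supplemented knockouts gave 0.20 for Cyp8b1 (SE 0.052, 1.59-fold, adjusted p = 0.226 in limma). AA-supplemented knockouts minus wild type gave 0.17 (1.47-fold, adjusted p = 0.350). The comparisons share arrays, so these differences are not independent of each other. The call against wild type rests on few arrays: without AA-deficient array 1 the difference was 0.31 (adjusted p = 0.0675), without wild-type array 1 it was 0.41 (adjusted p = 0.115), and without wild-type array 2 it was 0.32 (adjusted p = 0.115). Over 13 distinct alternative settings the difference stayed between 0.31 and 0.42 and passed in 10.

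Cyp7a1, at the rate-limiting step, had the widest spread between arrays of one group among the members. It had 1.28 and 1.503 in AA-deficient knockouts, 0.79 and 0.87 in AA-supplemented knockouts, and 1.71 and 1.01 in wild type. Both AA-supplemented arrays were below all other arrays, while the 2 wild-type arrays stood on either side of the AA-deficient ones. The wild-type arrays differed from each other by 0.70, or 5.06-fold, and the pooled spread within groups, 0.303, was at the 99.9 percentile of all genes tested.

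Between the knockouts the Cyp7a1 difference was the largest among the members, 0.56 (SE 0.19), which is 3.65-fold with a 95% interval of 1.32-fold to 10.1-fold. It did not pass over all genes (adjusted p = 0.363 in limma, and 0.140 to 0.944 over 13 distinct alternatives). Leaving out 1 array at a time kept this difference between 0.45 and 0.67. AA-supplemented knockouts minus wild type gave -0.53 (SE 0.19, adjusted p = 0.400), with the mean in wild type 3.38-fold above the supplemented one. AA-deficient knockouts minus wild type gave 0.033 with an interval of -0.41 to 0.47 (adjusted p = 0.949), so differences of either sign remain within the error. That value turned to 0.39 without wild-type array 1 and to -0.32 without wild-type array 2.

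**Figure D1:**
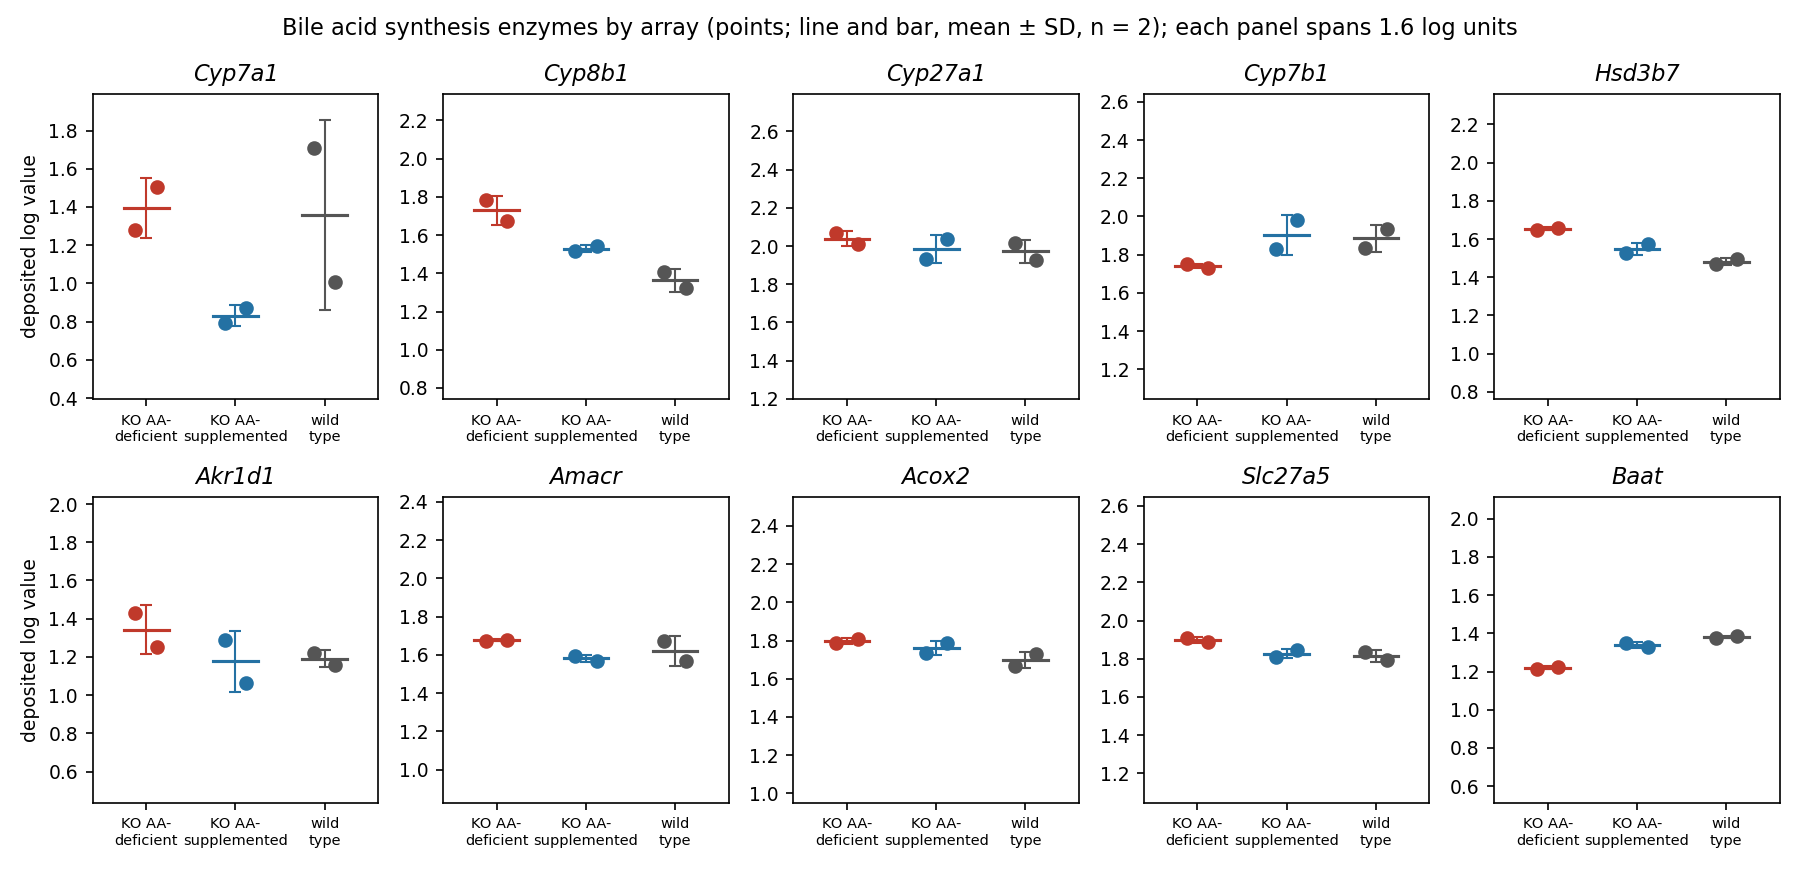
Deposited log value (vertical axis, taken as log10) of each enzyme on each array, by group, with points for arrays and line and bar for mean ± SD (n = 2); every panel spans the same range. Cyp8b1 and Hsd3b7 step down and Baat steps up over the groups without overlap, and the share of all genes that do so was not counted. The wild-type arrays of Cyp7a1, at 1.71 and 1.01, lie on either side of its AA-deficient arrays.

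Cyp7b1 and Cyp27a1 stand at the entry to the alternative route. Cyp7b1, the oxysterol hydroxylase, had 1.75 and 1.73 in AA-deficient knockouts, 1.83 and 1.98 in AA-supplemented knockouts, and 1.84 and 1.94 in wild type. Both AA-deficient arrays were below the other 4, opposite in sign to Cyp8b1. The difference was -0.16 between the knockouts (SE 0.060, adjusted p = 0.411 in limma) and -0.14 against wild type (adjusted p = 0.223), and neither passed. Cyp27a1, the mitochondrial sterol hydroxylase, had 2.07 and 2.01 in AA-deficient knockouts, 1.93 and 2.04 in AA-supplemented knockouts, and 2.01 and 1.93 in wild type, with overlap between all groups. Its difference between AA-deficient knockouts and wild type was 0.067, with an interval of -0.056 to 0.19, or 0.878-fold to 1.55-fold (adjusted p = 0.548).

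The ring enzymes both had their highest mean in AA-deficient knockouts. Hsd3b7, the steroid dehydrogenase that oxidises the ring hydroxyl after Cyp7a1 or Cyp7b1 has acted, had 1.65 and 1.66 in AA-deficient knockouts, 1.53 and 1.57 in AA-supplemented knockouts, and 1.47 and 1.49 in wild type. The groups took the same order as for Cyp8b1, without overlap. Against wild type the AA-deficient difference was 0.17 (SE 0.041, 1.49-fold) and just missed the threshold (adjusted p = 0.0553 in limma). It passed in 4 of 13 distinct alternatives, over which the adjusted p ran from 0.00951 to 0.292. Akr1d1, the reductase that sets the bend of the steroid ring, had 1.43 and 1.25 in AA-deficient knockouts, 1.29 and 1.06 in AA-supplemented knockouts, and 1.22 and 1.16 in wild type. Its arrays within a knockout group lay about as far apart as the groups did, and its difference of 0.15 against wild type did not pass (adjusted p = 0.368).

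Neither side-chain enzyme passed in any comparison. Amacr, the racemase that prepares the side chain for oxidation, had 1.67 and 1.68 in AA-deficient knockouts, 1.59 and 1.57 in AA-supplemented knockouts, and 1.67 and 1.57 in wild type. The 2 knockout groups did not overlap, with a difference of 0.093 (adjusted p = 0.597 in limma), while the wild-type arrays spanned both. Acox2, the peroxisomal oxidase of branched side chains, had 1.78 and 1.81 in AA-deficient knockouts, 1.73 and 1.79 in AA-supplemented knockouts, and 1.67 and 1.73 in wild type. Both AA-deficient arrays were above both wild-type arrays, by 0.098 on average (adjusted p = 0.262).

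The conjugation enzymes had differences of opposite sign, none past the threshold. Slc27a5, which links bile acids to coenzyme A, had 1.91 and 1.89 in AA-deficient knockouts, 1.81 and 1.84 in AA-supplemented knockouts, and 1.83 and 1.79 in wild type. Its difference was 0.073 between the knockouts (adjusted p = 0.652 in limma) and 0.086 against wild type (adjusted p = 0.295). Baat, which joins the activated bile acid to taurine or glycine, had 1.22 and 1.23 in AA-deficient knockouts, 1.35 and 1.33 in AA-supplemented knockouts, and 1.38 and 1.39 in wild type. The order was the reverse of that of Cyp8b1 and Hsd3b7, again without overlap. How many of all genes separate all groups in this way was not counted. Baat was also among the steadiest genes within groups, with a pooled spread of 0.010 at the 1.40 percentile of all genes. Its difference was -0.16 against wild type (SE 0.039, adjusted p = 0.0595), 1.45-fold higher in wild type, and -0.12 against AA-supplemented knockouts (adjusted p = 0.346). The difference from wild type passed in 5 of 13 distinct alternatives (adjusted p from 0.00756 to 0.286).

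**Figure D2:**
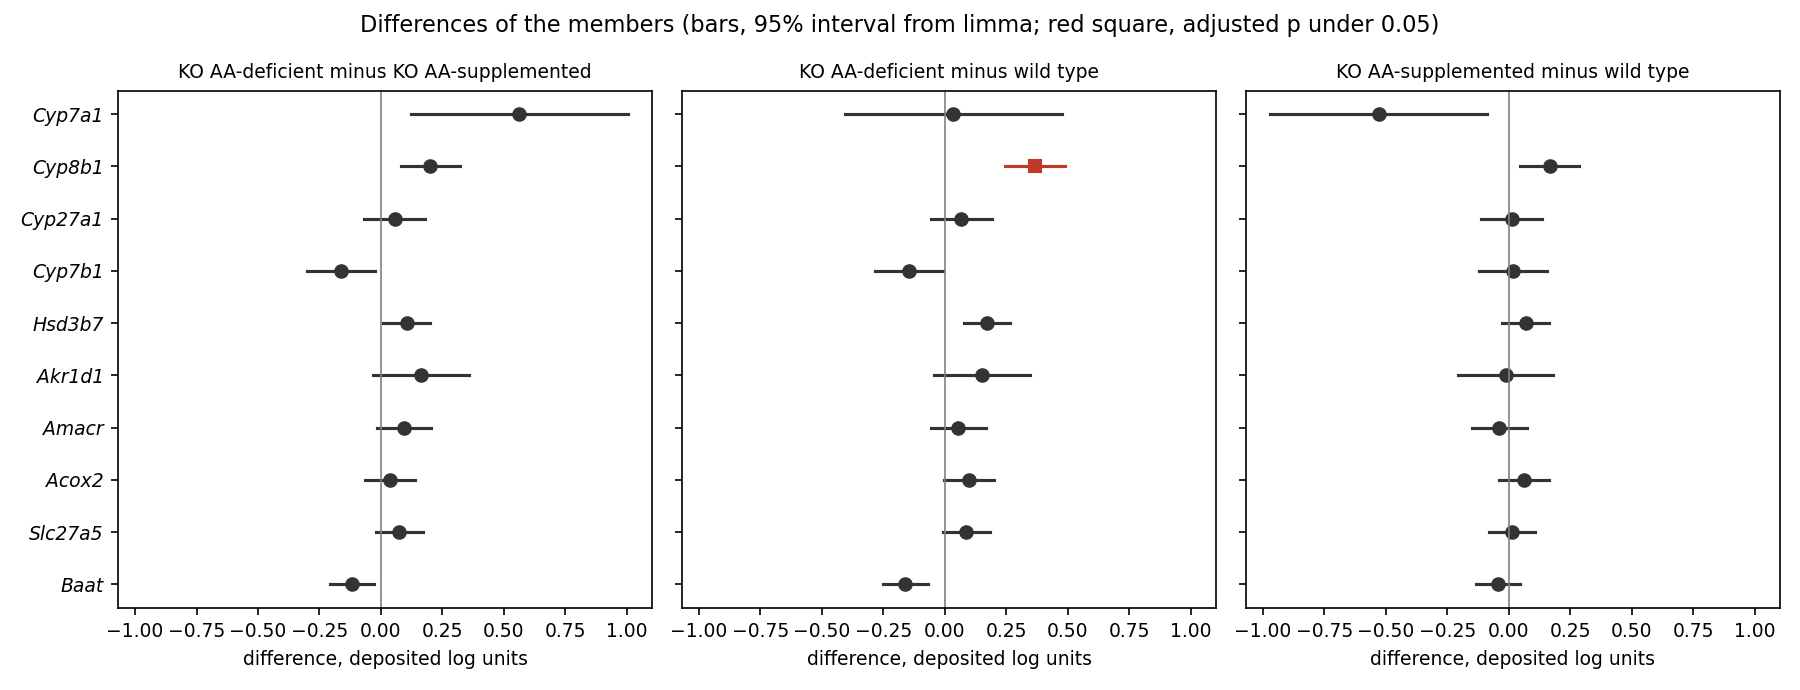
Difference of each enzyme in the 3 comparisons (horizontal axis, deposited log units), with 95% intervals from limma and a red square for an adjusted p under 0.05. The Cyp8b1 difference of 0.37 between AA-deficient knockouts and wild type is the single red square, and the Cyp7a1 intervals are the widest.

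Counted over the set, AA-deficient minus AA-supplemented knockouts were above 0 for 8 of 10 members (50% of all genes) and below 0 for Cyp7b1 and Baat. In this comparison 0 members passed in limma, where 0.205% of all genes did (0.0409% as higher and 0.164% as lower), and 5 had an unadjusted p under 0.05, where 9.92% of all genes did. Those 5 were Cyp7a1, Cyp8b1, Hsd3b7, Cyp7b1 and Baat. The groups did not overlap for 7 members (5 higher and 2 lower), against 37.3% of all genes (19.8% higher and 17.5% lower). The median difference was 0.083 over the members and 3.14e-05 over all genes tested, and the median size without its sign was 0.11 against 0.041.

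Against wild type, the AA-deficient differences were again above 0 for 8 of 10 members (48.5% of all genes) and below 0 for the same 2 genes. That is not separate evidence, because the AA-deficient arrays serve in both comparisons. Of the members 1 passed, Cyp8b1, where 4.63% of all genes passed (3.08% as higher and 1.55% as lower), so 1 call among 10 genes says little about the set. An unadjusted p under 0.05 was found for 4 members, against 20.4% of all genes, and groups without overlap for 7 (5 higher and 2 lower), against 54.5% (27.6% higher and 26.9% lower). The median difference was 0.077, against -0.0034 over all genes.

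Between AA-supplemented knockouts and wild type the members differed by about as much as genes in general. Here 0 members passed in limma, where 0.00682% of all genes did (Rgn alone), and 2 had an unadjusted p under 0.05, Cyp7a1 and Cyp8b1, against 10.6% of all genes. The groups did not overlap for 5 members, 3 higher and 2 lower, against 38.6% of all genes (19.8% higher and 18.8% lower). The members' median difference was 0.012 and their median size without sign was 0.041, against 0.044 over all genes tested. For Cyp27a1, Cyp7b1, Akr1d1, Amacr and Slc27a5 the difference was under 0.04 in size, and its sign turned when some single arrays were left out.

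The regulators of the pathway were read from a list of 20 genes, of which 18 could be tested. Onecut1, a cut-homeobox transcription factor of hepatocytes and bile ducts, was the one regulator that passed between the knockouts. It had 1.07 and 0.97 in AA-deficient knockouts, 1.44 and 1.45 in AA-supplemented knockouts, and 1.30 and 1.43 in wild type, so both AA-deficient arrays were below the other 4. The difference was -0.42 against AA-supplemented knockouts (SE 0.055, 2.63-fold higher in the supplemented ones, adjusted p = 0.0450 in limma) and -0.34 against wild type (2.20-fold higher in wild type, adjusted p = 0.0208). The call between the knockouts was lost without any 1 of the 6 arrays (adjusted p up to 0.154), and it held in 5 of 13 distinct alternatives. Against wild type it was lost when AA-deficient array 2 (adjusted p = 0.115) or either of the wild-type arrays (0.113 for array 1 and 0.132 for array 2) was left out.

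Another 3 regulators rose in AA-deficient knockouts against wild type. Mafg, an FXR-induced repressor of bile acid synthesis genes, Cyp8b1 among them, had 0.75 and 0.77 in AA-deficient knockouts and 0.75 and 0.69 in AA-supplemented knockouts, against 0.54 and 0.59 in wild type (difference from wild type 0.19, 1.57-fold, adjusted p = 0.0477 in limma). Foxo1, the insulin-restrained factor through which hepatic Cyp8b1 is regulated in mice, had 1.10 and 1.16 in AA-deficient knockouts and 1.08 and 1.06 in AA-supplemented knockouts, against 0.94 and 0.94 in wild type (0.19, 1.56-fold, adjusted p = 0.0458). Both genes had their 4 knockout arrays above both wild-type arrays. Nr1i3, the xenobiotic receptor CAR, had 1.36 and 1.36 in AA-deficient knockouts and 1.14 and 1.19 in AA-supplemented knockouts, against 1.18 and 1.02 in wild type (0.26, 1.82-fold, adjusted p = 0.0477). Each of these calls held in 6 of 13 distinct alternatives. For these 3 genes it was lost without either AA-deficient array or either wild-type array, with adjusted p up to 0.274 for Mafg, 0.296 for Foxo1 and 0.223 for Nr1i3.

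Mafg was the one gene of the feedback arm on this list that passed in limma. Nr0b2, or SHP, the FXR-induced repressor of Cyp7a1 and Cyp8b1, had 1.02 and 1.20 in AA-deficient knockouts, 0.85 and 0.72 in AA-supplemented knockouts, and 0.67 and 1.13 in wild type. Like Cyp7a1 it differed widely between the wild-type arrays, but the other way round: array 1 minus array 2 was 0.70 for Cyp7a1 and -0.46 for Nr0b2. Its difference between the knockouts was 0.32 (SE 0.13, adjusted p = 0.476 in limma). Klb, the co-receptor that lets hepatocytes sense FGF15, had 1.17 and 1.20 in AA-deficient knockouts, 1.04 and 0.89 in AA-supplemented knockouts, and 0.96 and 0.996 in wild type. Both AA-deficient arrays of Klb were above the other 4, by 0.22 on average against AA-supplemented knockouts (adjusted p = 0.212) and by 0.21 against wild type (adjusted p = 0.0775, past the threshold in 4 of 13 distinct alternatives).

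Of the other factors, Nr1h4 (FXR) differed by -0.040 between the knockouts and by -0.064 between AA-deficient knockouts and wild type, in limma without a call. Fgfr4, the FGF15 receptor, differed by 0.037 and 0.024 in the same 2 comparisons. For Hnf4a and Nr5a2, the receptors whose letters lie in the Cyp8b1 promoter above, the differences were -0.066 and 0.035 for Hnf4a and 0.036 and 0.058 for Nr5a2. Counted over the 18 regulators tested, 0 rose and 1 fell between the knockouts, where 0.205% of all genes passed. Between AA-deficient knockouts and wild type 3 rose and 1 fell, where 3.08% of all genes rose and 1.55% fell. An unadjusted p under 0.05 was found for 5 between the knockouts (9.92% of all genes) and for 6 in AA-deficient knockouts against wild type (20.4%). Between AA-supplemented knockouts and wild type 0 passed and 2 had an unadjusted p under 0.05, near the 10.6% of all genes. The list's median difference was 0.019 between the knockouts and 0.044 in AA-deficient knockouts against wild type. Over all genes these medians were 3.14e-05 and -0.0034.

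**Figure D3:**
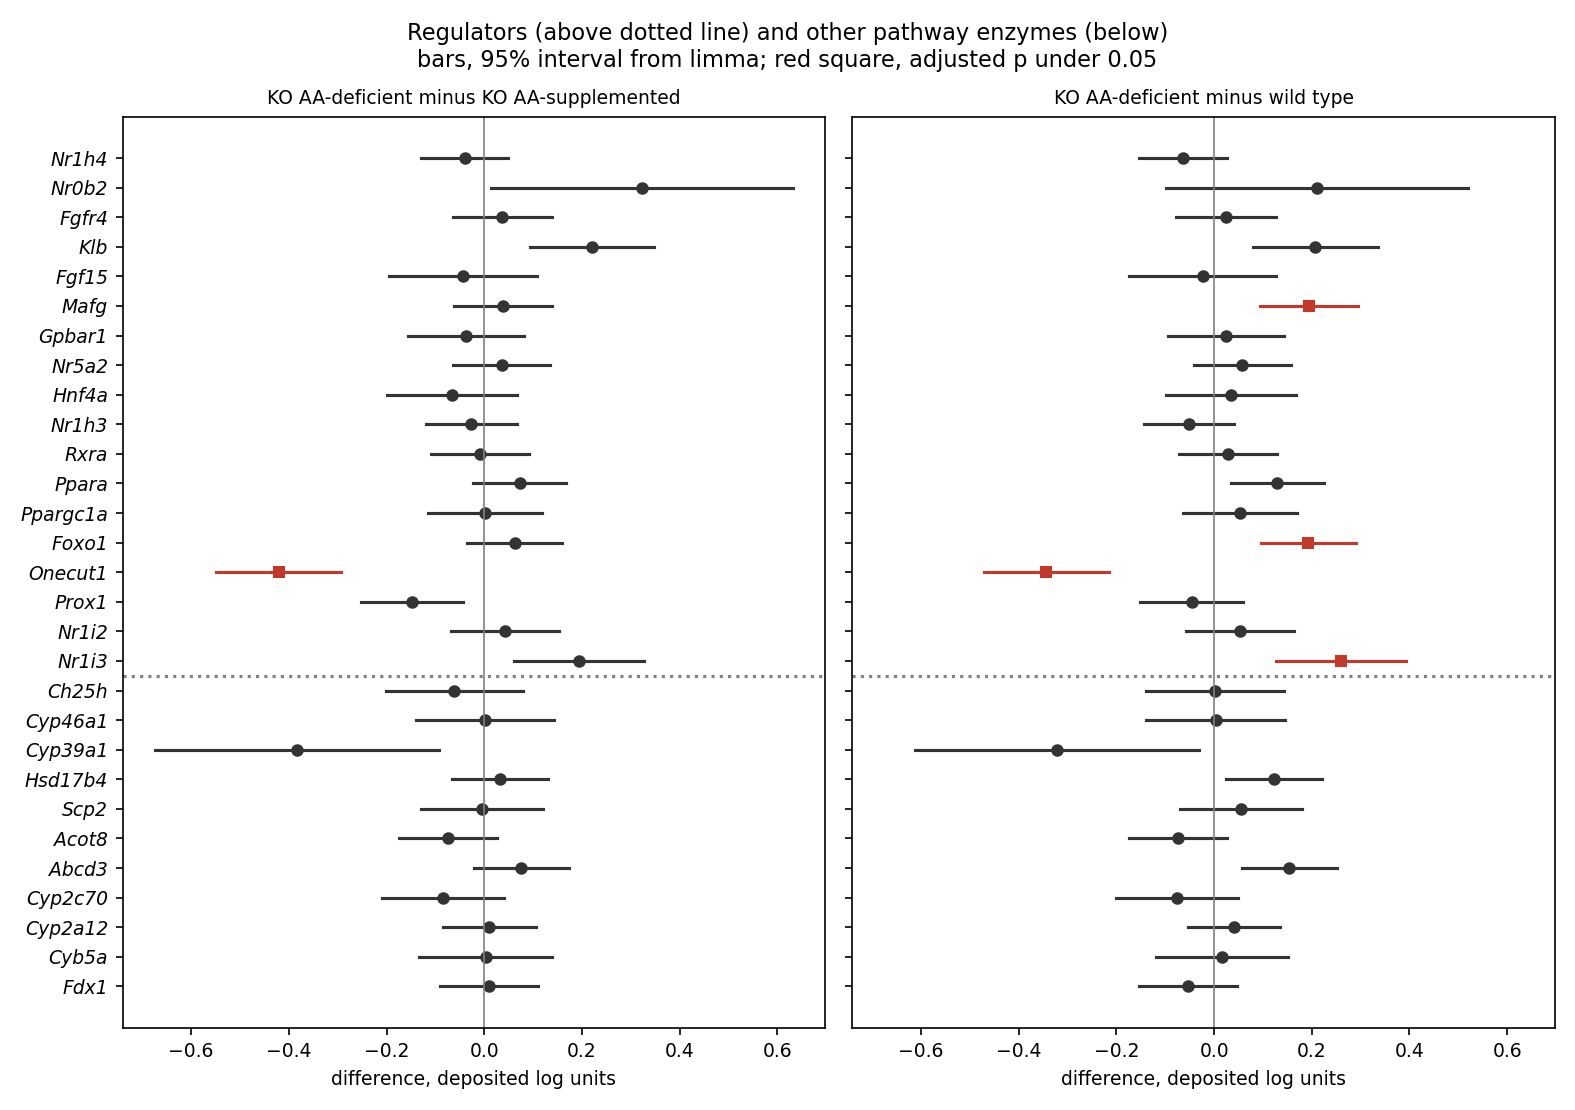
Differences (horizontal axis, deposited log units) of 18 regulators, above the dotted line, and 11 further pathway enzymes, below it, in the 2 comparisons of AA-deficient knockouts, with 95% intervals from limma and red squares for an adjusted p under 0.05. Onecut1 is the red square at -0.42 and -0.34, and Mafg, Foxo1 and Nr1i3 are red against wild type alone.

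Among 11 other genes of the pathway that could be tested, 0 passed in any comparison in limma. An unadjusted p under 0.05 was found for 1 between the knockouts (9.92% of all genes), 3 in AA-deficient knockouts against wild type (20.4%) and 0 in AA-supplemented knockouts against wild type (10.6%), shares near those of all genes. Cyp39a1, a further oxysterol hydroxylase, had 0.39 and 0.38 in AA-deficient knockouts, 0.88 and 0.65 in AA-supplemented knockouts, and 0.91 and 0.50 in wild type. It was low in both AA-deficient arrays, as Cyp7b1 was, with a difference of -0.38 between the knockouts (adjusted p = 0.339) and -0.32 against wild type (adjusted p = 0.202). Abcd3, which brings bile acid intermediates into peroxisomes, differed by 0.15 between AA-deficient knockouts and wild type (adjusted p = 0.0839).

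Hsd17b4, the bifunctional enzyme that follows Acox2 in the peroxisome, differed by 0.12 between AA-deficient knockouts and wild type (adjusted p = 0.151 in limma) and by 0.032 between the knockouts. Cyp2c70, which makes muricholic acids in mice, differed by -0.076 and -0.084 in these comparisons. Fdx1, the ferredoxin that passes electrons to mitochondrial enzymes such as Cyp27a1, differed by -0.054 and 0.010.

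Clock genes are given beside these values because Cyp7a1 transcription follows the time of day and collection times are not given here. Of 16 clock genes tested, 3 rose and 1 fell in AA-deficient knockouts against wild type in limma (4.63% of all genes passed): Per1 by 0.28 (adjusted p = 0.0168), Nr1d1, which encodes the repressor REV-ERBα, by 0.32 (adjusted p = 0.0337), Rora by 0.22 (adjusted p = 0.0280), and Ciart, which had -0.39 (adjusted p = 0.0385). Each call was lost without either wild-type array (adjusted p up to 0.236) and, except for Ciart without array 1, without either AA-deficient array. In the other 2 comparisons 0 clock genes passed, and an unadjusted p under 0.05 was found for 3 between the knockouts (9.92% of all genes) and for 2 between AA-supplemented knockouts and wild type (10.6%). Between the 2 wild-type arrays, where Cyp7a1 differed by 0.70, the median size of the difference was 0.063 over the clock genes and 0.047 over all genes, and the clock genes ran from -0.25 for Bhlhe40 to 0.15 for Per3 (array 1 minus array 2). Their part in the values of the bile acid enzymes was not tested.

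Few cell type markers passed. In AA-deficient knockouts against wild type, 0 of 10 hepatocyte, 0 of 4 cholangiocyte, 0 of 8 Kupffer cell, 0 of 7 stellate cell and 0 of 3 lymphocyte and neutrophil markers passed in limma, and with an unadjusted p under 0.05 there were 1 hepatocyte and 1 stellate cell marker, against 20.4% of all genes. Of 8 endothelial markers, Stab2, a scavenger receptor of sinusoidal endothelium, rose by 0.24 (adjusted p = 0.0320). The differences of these 8 were above 0 for 6 and below 0 for 2, from -0.073 to 0.24. The groups did not overlap for 5 as higher and 2 as lower, against 27.6% and 26.9% of all genes. Of the zonation markers, Lgr5 rose by 0.34 (pericentral, 1 of 10, adjusted p = 0.0187) and Hal by 0.21 (periportal, 1 of 7, adjusted p = 0.0432), where 3.08% of all genes rose. These 3 calls were lost without either AA-deficient or either wild-type array (adjusted p up to 0.262). In the other 2 comparisons 0 genes of these marker lists passed. Between the knockouts, however, 6 of 8 endothelial markers were higher in AA-deficient knockouts without overlap, against 19.8% of all genes. The other 2 were below 0 with overlap. An unadjusted p under 0.05 was found for 3, against 9.92% of all genes. The median difference of the endothelial list there was 0.091, against 0.083 for the bile acid enzymes. The mean of the endothelial list ran from 1.08 to 1.11 over AA-deficient arrays, 1.03 to 1.04 over AA-supplemented arrays and 1.03 to 1.05 over wild-type arrays. For the hepatocyte list these means ran from 2.12 to 2.13 over AA-deficient arrays, 2.08 to 2.21 over AA-supplemented arrays and 2.05 to 2.11 over wild-type arrays. Their part in the results above was not tested.

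**Figure D4:**
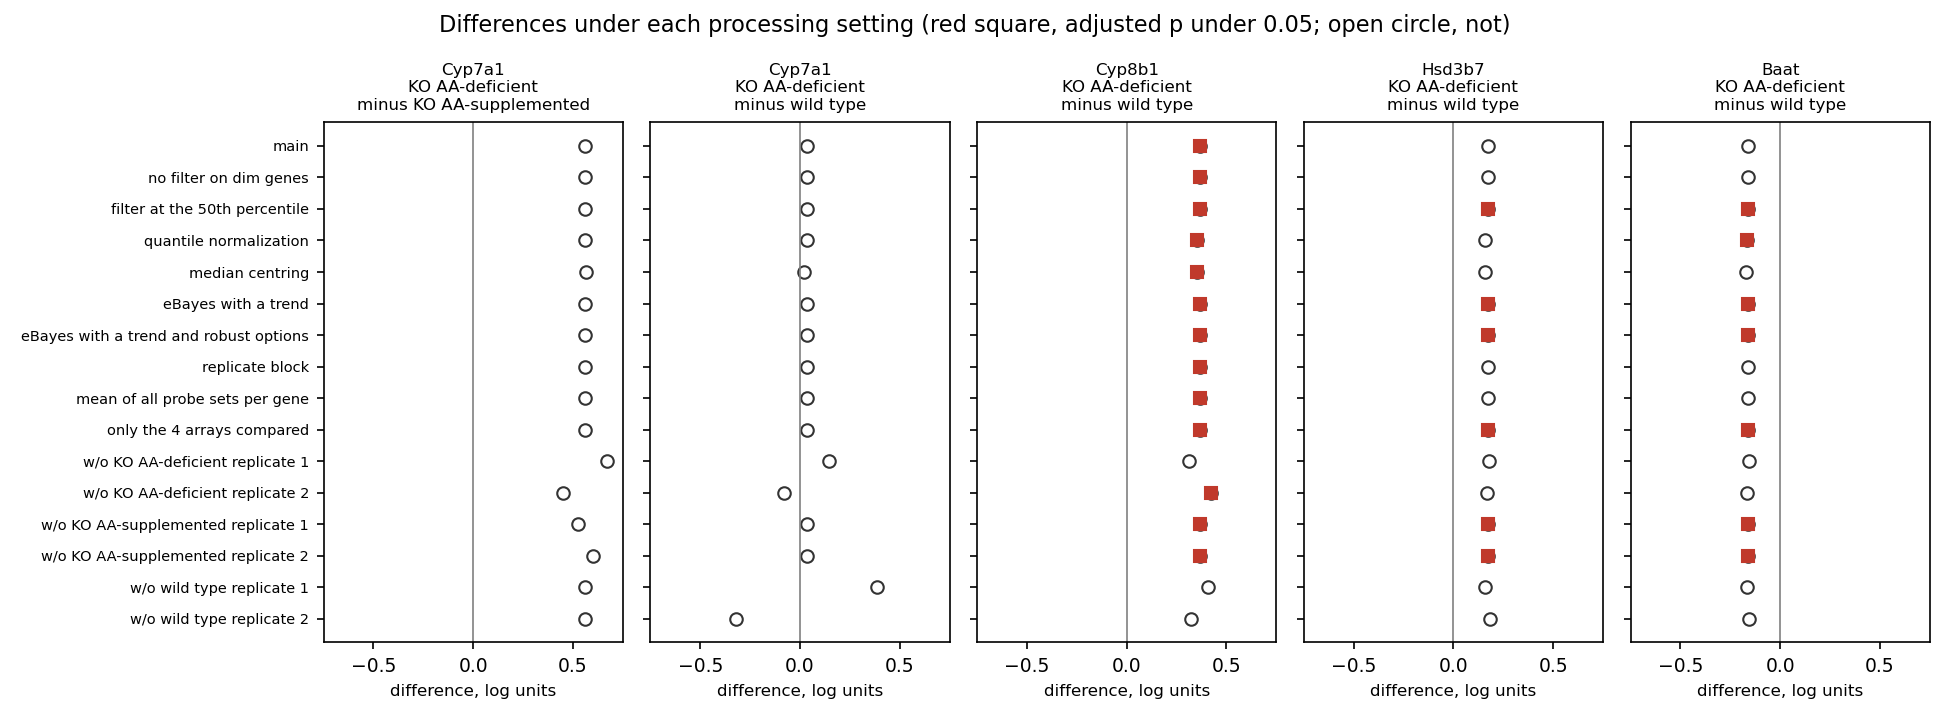
Difference (horizontal axis, deposited log units) of 4 enzymes under each processing setting and with each array left out, with red squares for an adjusted p under 0.05 and open circles otherwise. Cyp8b1 stays between 0.31 and 0.42 and passes in 10 of 13 distinct alternatives (leaving out either AA-supplemented array repeats the fit of the 4 arrays compared), while Cyp7a1 against wild type changes sign with the wild-type array left out, from -0.32 to 0.39.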

How the data were processed

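Per the labels' protocols, livers were homogenised in ISOGEN for total RNA, which was labelled with biotin for the arrays. The deposited values form one table of log values per probe set and array, taken here as log10 because their span is too small for log2 intensities. The sources used here do not give their log base, software, background correction or normalisation. Of 34760 probe sets, 30765 held values and 21161 of these had exactly 1 gene symbol in the platform annotation. The probe set with the highest mean stood for each of the 19550 genes, and the 14662 genes with a mean of at least 0.185 (the 25th percentile) were tested.

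Each comparison used limma's moderated test (version 3.58.1, R version 4.3.3, functions lmFit, contrasts.fit and eBayes), with all 6 arrays in one fit with 3 residual and 4.89 prior degrees of freedom, two-sided, with Benjamini-Hochberg adjustment over the genes tested and a threshold of 0.05. The fit was run on simulated data drawn from its own fitted prior, with independent arrays. That simulation left out deviations shared between groups, such as those given below, so it cannot speak for them. Alternatives covered the filter, quantile normalisation, median centring, eBayes options, the replicate number as a block, the mean of all probe sets, fits of the 4 arrays compared and leaving out each array. The number of arrays limits the precision, and no detection calls were used.

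The members and lists were chosen with earlier results of these data known. Every member was named, with list genes past the threshold and 9 further preset genes that had a probe set of their own. Of each marker list, up to 4 passing genes were named. Cyp39a1 and Abcd3 were named outside these rules, with their values known, and Bhlhe40, Per3 and Cyp2b13 as ends of a range.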

Additional observations from a re-analysis of the deposited data

How the results depend on the processing

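Over 450 alternative values of the 10 members, 418 kept their direction and side of the threshold, 3 lost the call, 13 gained one and 16 turned sign. The members past the threshold in AA-deficient knockouts against wild type, 1 as reported, numbered 3 (Baat, Cyp8b1 and Hsd3b7) with the filter at the 50th percentile, with a trend, with a trend and robust options and with only the 4 arrays compared, 2 (Baat and Cyp8b1) with quantile normalisation, and 0 to 3 with single arrays left out. Over any of the 3 groups, 1 member passed, against 0 with no filter or the replicate block, 3 with a trend, with or without robust options, and 0 to 1 with single arrays left out. In the other 2 comparisons 0 members passed in every setting run. Counts of all genes moved more. Between the knockouts 30 passed, against 0 with no filter, 51 with the filter at the 50th percentile, 14 with quantile normalisation, 57 with median centring, 154 with a trend, 177 with a trend and robust options, 4 with the replicate block, 0 with only the 4 arrays and 0 to 46 with single arrays left out. In AA-deficient knockouts against wild type 679 passed, against 173, 1057, 743, 533, 1271, 1312, 163 and 1031 in the same order and 1 to 1031 with single arrays left out. In AA-supplemented knockouts against wild type 1 passed, against 8 with median centring, 94 with a trend, 116 with a trend and robust options, 3 with the replicate block and 1 to 7 with single arrays left out. Deviations of same-numbered arrays correlated at -0.369 between the knockouts, 0.358 for AA-deficient knockouts with wild type and -0.284 for AA-supplemented knockouts with wild type. Replicate numbers thus did not pair the arrays alike, but deviations were shared between groups. AA-deficient array 1, AA-supplemented array 2 and wild-type array 1 had lower quartiles of 0.1667 to 0.2005, against 0.1352 to 0.148 for the other arrays. Their upper quartiles were 0.727 to 0.737, against 0.749 to 0.755. The replicate block does not follow this pattern, whose origin was not tested. With the replicate block Cyp8b1 still passed against wild type, and Onecut1, Mafg, Foxo1 and Nr1i3 did not.

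Signs turned for Cyp7a1 in AA-deficient knockouts against wild type (-0.32 to 0.39 with single arrays left out) and, in AA-supplemented knockouts against wild type, for Cyp27a1 (-0.019 with quantile normalisation, -0.0019 with median centring, -0.041 to 0.065 with arrays left out), Cyp7b1 (-0.011 with quantile normalisation, -0.058 to 0.093), Akr1d1 (-0.13 to 0.10), Amacr (-0.093 to 0.016) and Slc27a5 (-0.0072, -0.00066 and -0.0085 to 0.035). They also turned, with arrays left out, for Fdx1 (-0.020 to 0.040), Fgfr4 (-0.0042 to 0.079) and Hnf4a (-0.14 to 0.012) between the knockouts and for Nr0b2 in AA-deficient knockouts against wild type (-0.020 to 0.44). The cause was not tested. Leaving out an array of the group outside a comparison repeats the fit of the 4 arrays compared, so the 450 values and the ranges hold that fit 3 times, and the distinct alternatives number 13 a comparison. Leaving out an array leaves its group with 1, assumed to vary like the other groups, and a fit of fewer arrays has fewer degrees of freedom.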

Other observations

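Liver genes whose expression is known to differ between male and female mice were read from lists chosen with earlier results of these data known. In limma, 2 of 9 female-biased genes fell in AA-deficient knockouts against wild type, where 1.55% of all genes fell. Of these 9 genes, 2 were above 0 and 7 below, with a median difference of -0.056. They ran from -0.51 for Cyp2b10 to 0.22 for Cyp2b13, which was higher without a call (adjusted p = 0.0553). Cyp17a1, a steroid hydroxylase, had 0.59 and 0.45 in AA-deficient knockouts, 0.75 and 0.74 in AA-supplemented knockouts, and 1.05 and 0.97 in wild type. The groups did not overlap, and the wild-type mean was 3.10-fold above the AA-deficient one (difference -0.49, adjusted p = 0.00743), a call lost without wild-type array 1 (0.113) or 2 (0.0684). Cyp2b10, the classic target gene of CAR, had 0.37 and 0.26 in AA-deficient knockouts, 0.72 and 0.36 in AA-supplemented knockouts, and 0.73 and 0.92 in wild type (difference from wild type -0.51, adjusted p = 0.0458, up to 0.248 with single arrays left out). Nr1i3, which encodes CAR, was higher in the same comparison. Of 10 male-biased genes, Cyp2u1 rose by 0.23 (adjusted p = 0.0382, up to 0.236 with single arrays left out), where 3.08% of all genes rose. Of that list 6 genes were above 0 and 4 below, with a median difference of 0.074.

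Of 7 FXR target genes listed, 5 were bright enough to be tested. Of these, 5 were above 0 in AA-deficient knockouts against AA-supplemented knockouts (50% of all genes, list median 0.039) and 5 against wild type (48.5%, median 0.11), comparisons that share arrays. In AA-supplemented knockouts against wild type 3 were above 0 and 2 below (49.1% of all genes above, median 0.099). In limma, those 3 had an unadjusted p under 0.05 there, against 10.6% of all genes. Such a p was found for 3 in AA-deficient knockouts against wild type (20.4%) and for 1 between the knockouts (9.92%). Mafg, also on the regulator list, was the one that passed, in AA-deficient knockouts against wild type, where 4.63% of all genes did.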
